A study of Mus musculus with 6 samples.

Results

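The claudins are the membrane proteins that form the strands of the tight junction, and 10 of them (Cldn1, Cldn2, Cldn3, Cldn4, Cldn5, Cldn7, Cldn8, Cldn12, Cldn15 and Cldn23) were followed through 6 RNA-seq libraries of mouse colon. They were chosen by name as pore-forming and sealing claudins of the colon, not by their values, and are 10 of the 23 claudin genes and of the 24517 genes in the count tables. All 10 passed the low-count filter, which kept 16347 genes. The libraries were 3 of NSD2fl/fl mice, which carry the floxed Nsd2 gene intact, and 3 of NSD2∆IE mice, in which the gene for this histone methyltransferase was disrupted in the intestine. Both groups had eaten HFCD, a high-fat cholesterol diet, which the labels give as 16 weeks and the study's methods as somewhat longer, so no library shows the colon on a normal diet. Per those methods the mice were of C57BL/6J background, male littermates put on the diet as young adults, and the deletion was driven by Villin-Cre, which acts in intestinal epithelium. The RNA came from whole colon tissue, so endothelium, muscle, nerve and blood cells contributed reads and kept the gene.

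Claudins of neighbouring epithelial cells bind each other across the gap between the cells and decide what may pass there. Sealing claudins close the path between cells to ions and solutes, whereas Cldn2 and Cldn15 form channels that let small cations and water through. Colonocytes carry a mixture of both kinds, and Cldn5 is best known from the junctions of blood vessels. For several members, among them Cldn7, Cldn12 and Cldn23, the effect on permeability is mixed or less settled.

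Depth was even, at 38041832 to 38604680 counts a library. The targeted gene Nsd2 was read 1840, 2091 and 2455 times in NSD2fl/fl and 972, 914 and 1139 times in NSD2∆IE (replicates in the order 1, 2, 3 here and below), and the groups did not overlap. All 10 epithelial markers were read in every library, with a summed level of 12748 to 21855 CPM (read counts relative to a common library total, scaled by TMM factors). Of the small intestine markers, Apoa1, Apoa4 and Defa24 were at 0 in some library. Xist, the X-linked transcript of female cells, had 4, 0 and 3 counts in NSD2fl/fl against 24234, 21217 and 23403 counts in NSD2∆IE, so genotype and sex cannot be told apart here, although the methods name males. Of the 10 claudins, 1 lies on chromosome X, Cldn2. The labels call the libraries replicates without naming separate animals, so p-values measure the spread between these samples.

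The 10 genes were placed in the mouse genome (GRCm38, GENCODE M21) by symbol. Chromosome 5 holds 4 of them and chromosome 16 another 3. Cldn4 (chr5:134945119-134946934, reverse strand) and Cldn3 (chr5:134986214-134987472, forward strand) are neighbours with 39.3 kb between them, and each is a single exon, as are Cldn5 and Cldn8. Cldn3 overlaps the antisense gene Wbscr25, and because the strand setting of the counting is not given in the sources used here, reads of these genes cannot be told apart. Below are the bases just before the start of transcription for the pore-forming pair (Cldn2 and Cldn15), for the neighbouring sealing pair (Cldn4 and Cldn3) and for Cldn5, whose levels did not overlap between the genotypes. The sequences are from RefSeq, build GRCm38.p6, 5′ to 3′ on the strand of the gene. The capitals mark a TATA box (TATAAA) in Cldn2 and a GC box (GGGCGG, or CCGCCC where the match is on the other strand) in the other promoters. The Cldn15 stretch precedes a RefSeq start that lies inside the GENCODE gene, which begins at chr5:136966616. It ends 25 bases before that RefSeq start because those bases lie in an annotated exon.
Cldn2, chrX:139800558-139800807, forward strand: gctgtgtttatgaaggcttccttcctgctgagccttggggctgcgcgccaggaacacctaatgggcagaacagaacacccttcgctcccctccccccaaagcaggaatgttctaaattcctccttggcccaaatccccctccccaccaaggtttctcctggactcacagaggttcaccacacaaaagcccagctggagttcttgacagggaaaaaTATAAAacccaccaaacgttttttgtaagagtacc
Cldn15, chr5:136967619-136967843, forward strand: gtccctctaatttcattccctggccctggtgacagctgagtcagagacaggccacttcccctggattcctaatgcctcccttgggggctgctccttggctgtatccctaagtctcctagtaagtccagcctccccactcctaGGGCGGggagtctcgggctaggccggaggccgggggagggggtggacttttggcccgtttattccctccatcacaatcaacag
Cldn4, chr5:134946935-134947184, reverse strand: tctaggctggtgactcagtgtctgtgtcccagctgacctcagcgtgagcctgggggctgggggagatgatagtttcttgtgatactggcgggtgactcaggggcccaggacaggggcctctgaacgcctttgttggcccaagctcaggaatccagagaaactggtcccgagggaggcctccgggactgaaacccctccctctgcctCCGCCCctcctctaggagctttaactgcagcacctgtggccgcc
Cldn3, chr5:134985964-134986213, forward strand: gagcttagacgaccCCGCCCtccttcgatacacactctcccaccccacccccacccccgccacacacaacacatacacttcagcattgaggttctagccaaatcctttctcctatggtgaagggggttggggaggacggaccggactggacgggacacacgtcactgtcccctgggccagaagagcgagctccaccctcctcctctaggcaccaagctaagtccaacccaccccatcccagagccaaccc
Cldn5, chr16:18776597-18776846, forward strand: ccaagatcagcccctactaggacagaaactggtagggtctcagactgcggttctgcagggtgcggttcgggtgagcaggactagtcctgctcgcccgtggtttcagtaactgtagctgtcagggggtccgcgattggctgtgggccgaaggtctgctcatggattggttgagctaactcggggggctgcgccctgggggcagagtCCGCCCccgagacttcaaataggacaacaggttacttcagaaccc

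At least 1 window of 250 bases was found for 8 of the 10 claudins, 11 windows together since Cldn7 and Cldn12 have several starts, among 32817 windows in all. Each was searched on both strands. Cldn8 and Cldn23 were not matched. A GC box was held by 8 of the 11 claudin windows and by 32.7% of all windows, and Cldn2 was the 1 of the 8 genes with none. The same Cldn12 site was counted in more than 1 window, since its windows overlap. The GC boxes of Cldn7, Cldn12 and Cldn15 lay inside the annotated gene. The TATA box of Cldn2 lay 35 to 30 bases before the start, and TATAAA was held by 12.4% of all windows. Since the view by Hoxb13 is described below, the letters CAATAAA and CTCGTAAA, which HOX13 proteins bind, were also searched. They were in 4.20% and 0.110% of all windows and in 0 of the 11 claudin windows. GTTAAT, an HNF1-type site, was in 6.44% of all windows and in 1 claudin window, that of Cldn1, and the HNF4-type site CAAAGTCCA was in 0.384% and in 0. These are matches of letters and say nothing of binding.

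The claudins differed widely in level. On a scale that corrects for gene length (FPKM as deposited, given as mean ± SD over all 6 libraries), Cldn7 stood at 386 ± 46.9 and Cldn3 at 309 ± 51.6, and both together made up 71.3% to 77.4% of the summed FPKM of the 10. The pore formers followed, Cldn15 at 99.2 ± 26.0 and Cldn2 at 67.3 ± 16.4 FPKM. Cldn23 (16.6 ± 3.58), Cldn4 (15.9 ± 5.53), Cldn12 (14.8 ± 1.67) and Cldn8 (13.8 ± 8.66 FPKM) lay close together. Their ranges overlapped from one to the next, so the order among these 4 was not resolved. Cldn5 had 5.47 ± 1.40 FPKM and Cldn1, a sealing claudin best known from the skin barrier, had 1.01 ± 0.290 FPKM. Breaks without overlap lay between Cldn3 and Cldn15, between Cldn2 and Cldn23 and between Cldn5 and Cldn1. The ranges of Cldn7 and Cldn3 overlapped, yet Cldn7 was the higher in 6 of 6 libraries, as was Cldn15 over Cldn2.

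**Figure D1:**
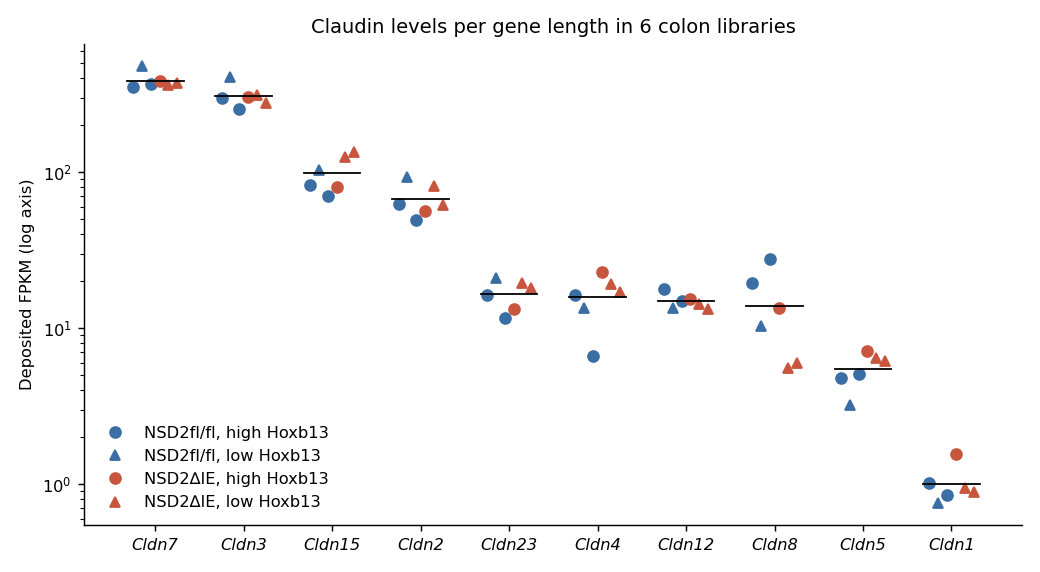
Deposited FPKM (log axis) of each claudin in each of the 6 libraries, ordered by mean level, with NSD2fl/fl in blue, NSD2∆IE in red, circles for high and triangles for low Hoxb13, and a line at the mean. Cldn7 and Cldn3 lead at 386 and 309 FPKM, Cldn1 is lowest at 1.01 FPKM, and Cldn8 is the most spread among the claudins of middle level.

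The other 13 claudin genes of the tables added little. Of these, 12 had at most 50 counts in every library, and 3 passed the filter. Cldn14, singled out after its values were seen, was the exception with 226, 10 and 194 counts in NSD2fl/fl and 243, 34 and 73 counts in NSD2∆IE. Its highest level was 6.13 CPM. Its high counts were in the libraries that also had high Hoxb13.

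To ask whether loss of intestinal NSD2 went with a change in claudin transcripts, the genotypes were compared gene by gene with the quasi-likelihood test of edgeR, fitted on all 16347 genes. At an adjusted p under 0.05 the number of claudins called was 0 of 10, in a comparison that called 0.0306% of all genes. DESeq2 also called 0, as did limma-voom. At an unadjusted p under 0.05, 1 of 10 was lower in NSD2∆IE, Cldn8, where 2.96% of all genes were, and 0 were higher, where 8.15% were. Fitted log2 fold changes were above 0 for 4 claudins and below 0 for 6, with Cldn23 above 0 when library totals alone or FPKM were used. Their median was -0.12 and that of all genes -0.04. Library totals alone in place of TMM factors moved the median of all genes by 0.127, and the changes given here are relative to TMM.

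Cldn8, a sealing claudin of the distal colon, showed the largest fitted difference among the 10. It had 45.5, 26.3 and 70.4 CPM in NSD2fl/fl and 30.8, 12.7 and 13.04 CPM in NSD2∆IE. NSD2∆IE replicate 1 lay above NSD2fl/fl replicate 2, so the genotypes overlapped, and replicates 2 and 3 of NSD2∆IE were the lowest of all. The means were 47.4 ± 22.1 and 18.8 ± 10.3 CPM (SD, n = 3 per group), and the log2 fold change was -1.33 (SE 0.471, edgeR unadjusted p = 0.0263, adjusted p = 0.382). DESeq2 gave an adjusted p of 0.0764, the lowest over 16 alternatives, in which the adjusted p reached 0.990. Below 0 in all 16, the fitted value ranged from -1.87 to -0.93. With 1 library left out, the unadjusted p of the edgeR fit was 0.0565 without NSD2fl/fl replicate 1, where the fitted value stayed at -1.36, 0.102 without NSD2fl/fl replicate 3 (-0.93), 0.0791 without NSD2∆IE replicate 2 (-1.11) and 0.0821 without NSD2∆IE replicate 3 (-1.12). Leaving out NSD2fl/fl replicate 2 gave 0.00759 (-1.62), and leaving out NSD2∆IE replicate 1 gave 0.00415 (-1.87).

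Of the 5 sealing claudins, 3 had fitted values on the other side of 0, Cldn4, Cldn5 and Cldn1, the last of which is given below. For Cldn4, whose protein is typical of surface epithelium, the levels were 29.1, 26.5 and 12.7 CPM in NSD2fl/fl and 40.2, 33.9 and 28.6 CPM in NSD2∆IE. Only NSD2fl/fl replicate 1 reached into the NSD2∆IE range. The log2 fold change was 0.59 (SE 0.310, edgeR unadjusted p = 0.102, adjusted p = 0.547), and it was 0.30 without NSD2fl/fl replicate 3, the library with the lowest value. Cldn5 had 6.73, 4.94 and 7.69 CPM in NSD2fl/fl and 9.81, 8.88 and 8.03 CPM in NSD2∆IE. It was the 1 claudin of 10 whose genotypes did not overlap, higher in every NSD2∆IE library, as were 11.4% of all genes, while 0 of 10 were lower in every NSD2∆IE library, as were 7.28% of all genes. The log2 fold change of Cldn5 was 0.46 (SE 0.211, edgeR unadjusted p = 0.0649, adjusted p = 0.481). In FPKM, Cldn4 did not overlap either, at 6.58 to 16.3 in NSD2fl/fl and 17.1 to 22.8 in NSD2∆IE. The same was seen with library totals alone and upper-quartile factors. These scalings raise NSD2∆IE for all genes. Of 16347 genes, 7145 had fitted values above 0 with TMM, 8900 with upper-quartile factors, 10619 with library totals and 10880 at log2(FPKM + 1). The share of all genes without overlap was not counted in these settings.

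Cldn4 was also compared with its neighbour Cldn3, since both genes are sealing claudins on one stretch of chromosome 5. In FPKM, Cldn4 amounted to 5.41%, 3.34% and 2.58% of Cldn3 in NSD2fl/fl and 7.50%, 6.18% and 6.16% in NSD2∆IE. The proportion was thus higher in every NSD2∆IE library. It does not depend on the scaling of the libraries, but it carries the level of Cldn3 as well as that of Cldn4. No test was made of it, and how often other pairs of genes separate in this way was not counted. Of single genes, 18.7% of all tested did not overlap between the genotypes. Cldn3 itself had 375, 554 and 345 CPM in NSD2fl/fl and 374, 382 and 324 CPM in NSD2∆IE, with NSD2fl/fl replicate 2 far above the rest. Its log2 fold change was -0.24 (SE 0.208, edgeR adjusted p = 0.709).

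Cldn7, the most abundant member, had the same outlying library. Levels were 505, 754 and 571 CPM in NSD2fl/fl and 542, 515 and 498 CPM in NSD2∆IE, where the NSD2∆IE libraries stayed within a coefficient of variation of 4.27%, against 21.2% in NSD2fl/fl. The log2 fold change was -0.24 (SE 0.182, edgeR adjusted p = 0.672). The epithelial markers moved in the same way, with a summed level of 21855 CPM in NSD2fl/fl replicate 2 and 12748 to 15624 CPM in the other libraries. Relative to that sum, Cldn7 stood between 3.45% and 3.91% in all 6 libraries, and Cldn3 between 2.21% and 2.85%.

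The pore-forming claudins gave no difference beyond the spread. Cldn2 had 203, 328 and 171 CPM in NSD2fl/fl and 179, 259 and 188 CPM in NSD2∆IE, and its genotypes overlapped fully. The log2 fold change was -0.17 (SE 0.275, edgeR adjusted p = 0.843), and without NSD2fl/fl replicate 2 it was 0.16. Cldn15 had 152, 208 and 138 CPM in NSD2fl/fl and 144, 225 and 229 CPM in NSD2∆IE, where replicate 1 of NSD2∆IE was among the low libraries. Its log2 fold change was 0.27 (SE 0.236, edgeR adjusted p = 0.713).

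The remaining members were Cldn1, Cldn12 and Cldn23. Cldn1 had few reads, 126, 94 and 105 counts in NSD2fl/fl and 196, 119 and 111 counts in NSD2∆IE, and only NSD2∆IE replicate 1 stood out. Its log2 fold change was 0.26 (SE 0.294, edgeR adjusted p = 0.774), and without that library it was -0.05. Cldn12, a broadly expressed member that lacks the usual scaffold-binding tail, varied least, from 52.4 to 74.7 CPM, with a log2 fold change of -0.22 (SE 0.123, edgeR adjusted p = 0.570). Cldn23, a claudin of differentiated colonocytes, had 23.0 to 41.8 CPM in NSD2fl/fl and 23.8 to 34.8 CPM in NSD2∆IE and a log2 fold change of -0.08 (SE 0.246, edgeR adjusted p = 0.921).

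**Figure D2:**
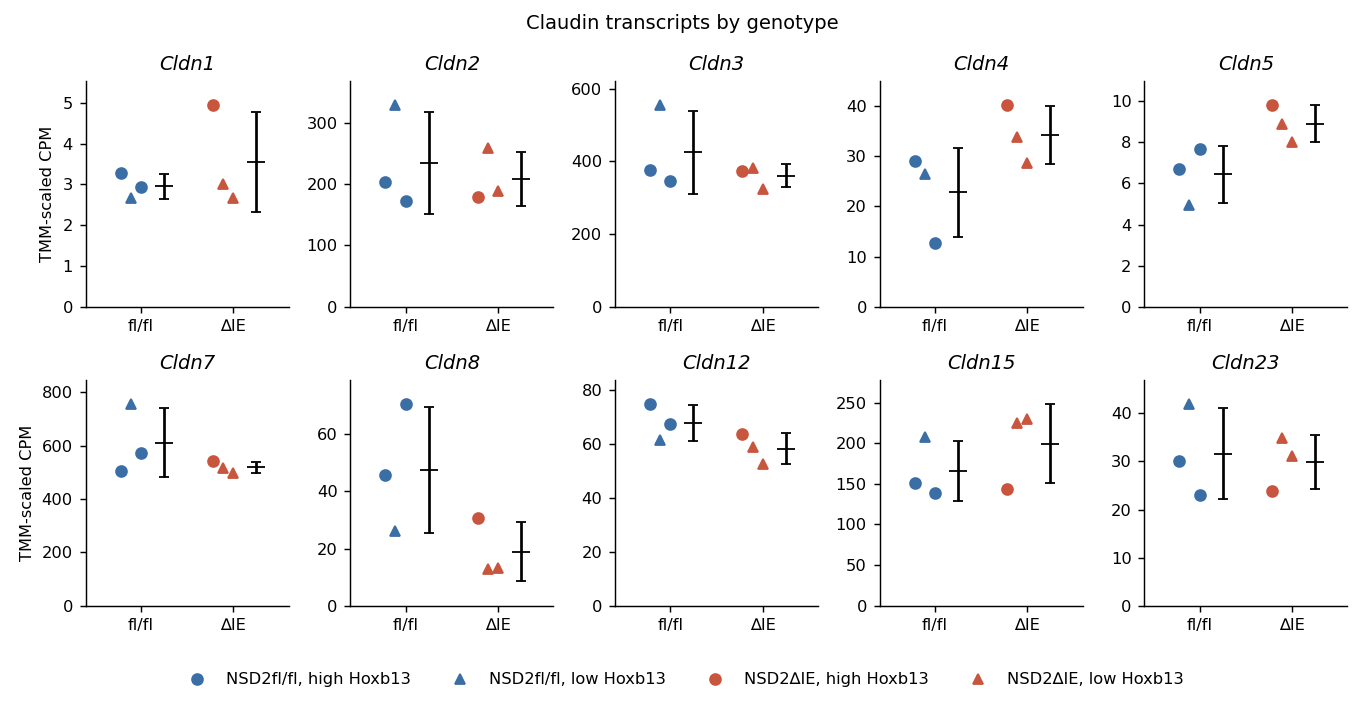
TMM-scaled CPM of each claudin by genotype, with a point for each library (circles for high and triangles for low Hoxb13), the mean as a horizontal line and the SD as bars (n = 3 per group), each panel with its own axis from 0. Cldn5 is the claudin without overlap, and for Cldn3 and Cldn7 NSD2fl/fl replicate 2 lies above all other libraries, at 554 and 754 CPM.

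Other cells of the bulk tissue moved with the genotype. All 8 smooth muscle markers had fitted values above 0, 7 of them at an unadjusted p under 0.05, and their summed level was 1421 to 4086 CPM in NSD2fl/fl and 5079 to 10896 CPM in NSD2∆IE. All 8 markers of enteric neurons and glia were higher at an unadjusted p under 0.05, at 46.9 to 77.1 against 101 to 129.7 CPM. At that threshold 8.15% of all genes were higher. Of the 10 epithelial markers, 9 had fitted values below 0, with a median log2 fold change of -0.28. In bulk tissue, fewer cells of a type and less RNA per cell cannot be told apart. None of the markers of these 3 lists was at 0 in any library, and their part in the claudin differences was not tested. Of the rarer cells, the 5 tested markers of adipocytes all had fitted values above 0 (summed level 14.9 to 29.98 CPM in NSD2fl/fl and 32.3 to 72.0 CPM in NSD2∆IE, with Adipoq, Plin1, Lep and Retn at 0 in some library), and the 5 tested mesothelial markers all had values below 0 (104 to 222 and 112 to 142 CPM, with Wt1 and Lrrn4 at 0 in some library). Markers of the crypt base and of proliferation, with 3 of 5 above 0, overlapped between the genotypes.

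For Cldn5 the endothelium was the relevant background. Of its 10 markers, 8 had fitted values above 0, with a median log2 fold change of 0.28. At an unadjusted p under 0.05, 2 of the 10 were higher, where 8.15% of all genes were. The summed level was 182 to 219 CPM in NSD2fl/fl and 199 to 233 CPM in NSD2∆IE, and no marker was at 0. Against that sum, Cldn5 stood at 3.07%, 2.72% and 4.22% in NSD2fl/fl and 4.22%, 4.46% and 3.65% in NSD2∆IE. The genotypes overlapped on this scale. For the epithelial members, the sum of epithelial markers served in the same way. Cldn4 amounted to 0.0816% to 0.221% of it in NSD2fl/fl and 0.224% to 0.277% in NSD2∆IE, without overlap. The gap was narrow, between NSD2fl/fl replicate 1 at 0.221% and NSD2∆IE replicate 3 at 0.224%. The share of all genes without overlap on this scale was not counted. Cldn8 amounted to 0.346%, 0.120% and 0.450% in NSD2fl/fl and 0.212%, 0.0920% and 0.102% in NSD2∆IE, with the same overlap as in CPM.

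The libraries also differed in Hoxb13, a homeobox gene of the most distal hindgut, and not along the genotype. Its level was 365, 0.706 and 340.5 CPM in NSD2fl/fl and 310.0, 4.97 and 26.2 CPM in NSD2∆IE. Cut at the widest gap on the log2 scale, NSD2fl/fl replicates 1 and 3 and NSD2∆IE replicate 1 were high, and the other 3 libraries were low, with the lowest of the high libraries 11.8-fold above the highest of the low. NSD2∆IE replicate 3 lay between the extremes. The sets were defined from these values, are unequal in genotype and carry no label, so claudin levels in them are given as a description with no test.

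Of the 10 claudins, 4 did not overlap between the libraries of high and low Hoxb13. Those higher in the high libraries numbered 2, Cldn8 and Cldn12, where 12.8% of all genes did the same. Those lower numbered 2, Cldn15 and Cldn23, where 9.55% of all genes did. Cldn8 ranged from 30.8 to 70.4 CPM in the high libraries and from 12.7 to 26.3 CPM in the low. Cldn15 ranged from 138 to 152 CPM against 208 to 229 CPM, a tight cluster in the high libraries whatever the genotype. The gaps were narrower for Cldn12, at 63.7 to 74.7 against 52.4 to 61.5 CPM, and for Cldn23, at 23.0 to 30.02 against 31.1 to 41.8 CPM. Cldn2 overlapped, at 171 to 203 against 188 to 328 CPM, with NSD2∆IE replicate 3 inside the high range.

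**Figure D3:**
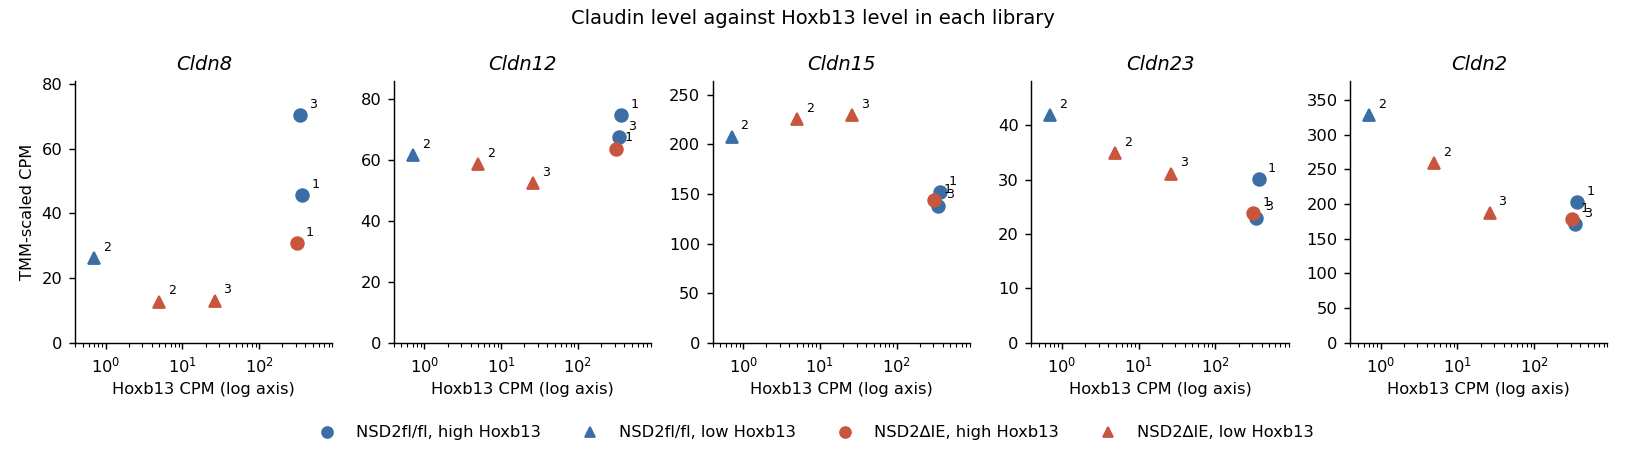
TMM-scaled CPM of 5 claudins against Hoxb13 CPM (log axis) in each library, with the replicate number beside each point, NSD2fl/fl in blue, NSD2∆IE in red, circles for high and triangles for low Hoxb13. Cldn8 and Cldn12 are higher and Cldn15 and Cldn23 lower in the 3 libraries of high Hoxb13, while Cldn2 overlaps.

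The size of these differences was also read within each genotype. For the 4 claudins without overlap the sign within a genotype is fixed by how they were picked, and it adds no support. The log2 difference of the high over the low libraries was 1.11 in NSD2fl/fl and 1.26 in NSD2∆IE for Cldn8. For Cldn15 it was -0.52 and -0.66, for Cldn23 -0.67 and -0.47, and for Cldn12 0.21 and 0.20. A difference of opposite sign in the genotypes was seen for Cldn3, at -0.63 and 0.09, and for Cldn7, at -0.49 and 0.10. Cldn4 also differed in sign, at -0.46 and 0.37. For all of these the NSD2fl/fl value rests on replicate 2 as the only low library. Each of these values compares 2 libraries with 1.

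The summed levels of the functional classes were also read along the Hoxb13 sets, in FPKM. The pore formers Cldn2 and Cldn15 together had 145, 119 and 136 FPKM in the libraries of high Hoxb13 (NSD2fl/fl replicates 1 and 3 and NSD2∆IE replicate 1, in this order) and 196, 206 and 196 FPKM in the low ones (NSD2fl/fl replicate 2 and NSD2∆IE replicates 2 and 3). The 5 sealing claudins together had 342, 296 and 349 FPKM in the high and 433, 343 and 307 FPKM in the low libraries, and these overlapped. Among the sealing claudins, Cldn8 alone of the 5 did not overlap between the sets. Relative to Cldn8, Cldn15 stood at 4.24, 2.50 and 5.96 times its FPKM in the high libraries and at 10.1, 22.6 and 22.4 times in the low ones, a separation that follows from the levels of both genes given above. The combined share of Cldn2 and Cldn15 in the summed FPKM of the 10 claudins was 16.7%, 14.7% and 15.2% in the high libraries and 17.2%, 21.8% and 21.7% in the low. Here NSD2fl/fl replicate 2 lay near the high libraries and the low NSD2∆IE libraries stood apart.

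**Figure D4:**
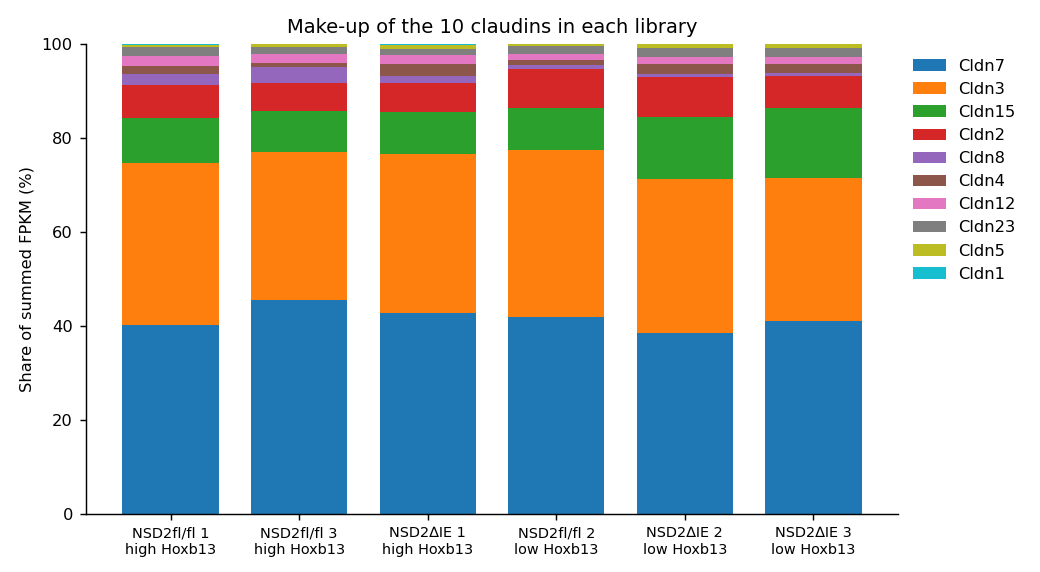
Share of each claudin in the summed FPKM of the 10 (%), a bar for each library, ordered by Hoxb13 set. Cldn7 and Cldn3 take 71.3% to 77.4% of every bar, and the green Cldn15 segment is tallest in NSD2∆IE replicates 2 and 3, at 13.2% and 14.8%.

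Markers of other cells and of position moved with the same sets. The 5 goblet cell markers summed to 25053 to 45010 CPM in the high libraries and 14655 to 23980 CPM in the low, with 3 of the 5 higher and 1 lower in every high library. The markers of B and plasma cells summed to 1503 to 2394 against 1043 to 1261 CPM, and 5 of 5 were higher in every high library. The sum of the 7 surface colonocyte markers was lower in the high libraries, at 3051 to 4750 against 6874 to 13114 CPM, but the list was mixed, with 3 lower and 2 higher in every high library. Of all genes, 12.8% were higher and 9.55% lower in every high library. Small intestine markers summed to 4.52 to 11.7 CPM in the high and 67.6 to 318 CPM in the low libraries, with Apoa1, Apoa4 and Defa24 at 0 in some library. The distal list, which contains Hoxb13, had Hoxd13 and Hoxd12 at 0 in some library. The labels do not say from which stretch of colon each sample was cut, and the part of these differences in the claudin levels was not tested.

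With the Hoxb13 set as an additional term in the edgeR fit, the genotype difference of Cldn8 was -0.97 (SE 0.183, unadjusted p = 0.00112, adjusted p = 0.314). The fitted value was smaller than without the term and its SE smaller too. Within the high libraries the log2 difference of NSD2∆IE from NSD2fl/fl was -0.88 and within the low ones -1.03. In each set every NSD2∆IE library lay below every NSD2fl/fl library. Each set holds a single library of 1 genotype, and the share of all genes in this order was not counted, so the order adds no support. Cldn5 was 0.61 (SE 0.191, unadjusted p = 0.0154, adjusted p = 0.318) with the term, 0.45 within the high and 0.77 within the low libraries. In this fit 1 claudin was lower at an unadjusted p under 0.05, where 3.89% of all genes were, and 1 was higher, where 9.06% were, and 0 passed an adjusted p of 0.05. Cldn15, at 0.27 without the term, was 0.06 (SE 0.119) with it. Cldn4 stayed at 0.59 (SE 0.317, unadjusted p = 0.105), with 1.06 within the high and 0.23 within the low libraries, a difference that was not tested. Cldn3 was 0.06 within the high and -0.66 within the low libraries, and Cldn7 0.01 and -0.58. The low values again set 2 libraries against NSD2fl/fl replicate 2 alone.

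**Figure D5:**
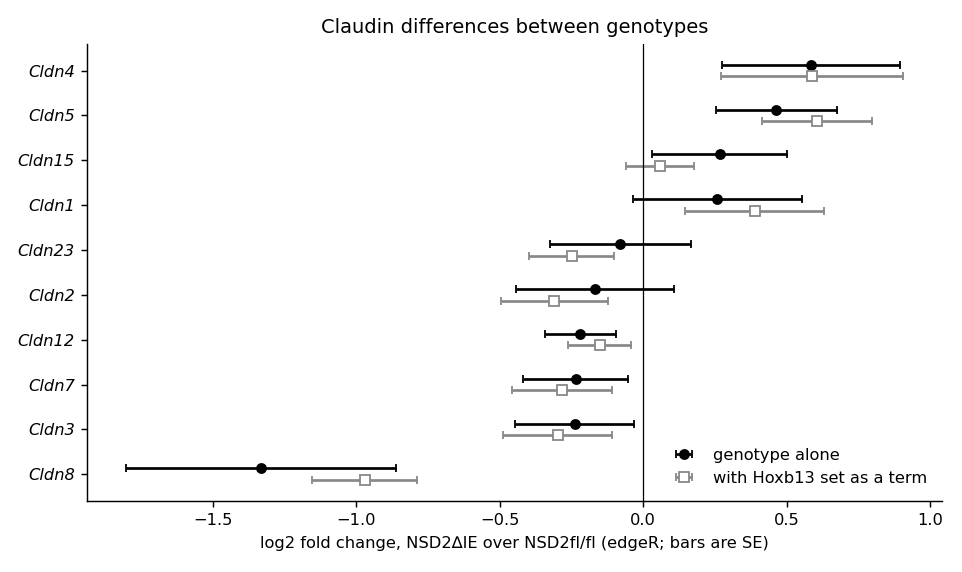
Log2 fold change of NSD2∆IE over NSD2fl/fl for each claudin from edgeR, with bars of 1 SE, for genotype alone (filled) and with the Hoxb13 set as a term (open). Cldn8 is lowest in both, at -1.33 and -0.97, Cldn4 and Cldn5 are the highest, and the bars of Cldn8 narrow with the term.

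Claudins act with scaffold and membrane partners at the junction, and 20 of these genes were read from the same fit. Fitted values were above 0 for 4 and below 0 for 16, with a median of -0.24. All genes had a median of -0.04, and the epithelial markers described above had -0.28. Of the 20 partners, 5 were above 0 in the FPKM fits and 3 with the Hoxb13 term. At an adjusted p under 0.05 the count was 0 with edgeR and 1 with DESeq2, where the share of all genes was not counted. At an unadjusted p under 0.05 edgeR had 1 of 20 higher and 3 of 20 lower, beside 8.15% and 2.96% of all genes. Mpdz, a scaffold with many PDZ domains, had 11.7, 9.92 and 9.66 CPM in NSD2fl/fl and 17.2, 19.3 and 21.5 CPM in NSD2∆IE. Every NSD2∆IE value lay above every NSD2fl/fl value, as was so for 11.4% of all genes. The log2 fold change was 0.89 (SE 0.151, edgeR unadjusted p = 0.000678, adjusted p = 0.302). The part of the cell make-up of the tissue in this difference was not tested. DESeq2 gave Mpdz an adjusted p of 0.000381, the lowest over 16 alternatives, in which it reached 0.990. The lower genes were Marveld3, a membrane protein of the occludin family (-0.49, SE 0.142, unadjusted p = 0.0106), the scaffold Tjp3 (-0.51, SE 0.180, unadjusted p = 0.0257) and the scaffold Magi3 (-0.35, SE 0.136, unadjusted p = 0.0366). Between the Hoxb13 sets, 2 of the 20, Lsr and Cgnl1, were higher in every high library, where 12.8% of all genes were.

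Of 10 epithelial transcription factors, 9 had fitted values below 0 and 1 above, with a median of -0.24, beside -0.28 for the epithelial markers. The FPKM fits put 2 of the factors above 0, and with the Hoxb13 term 0 were above. With edgeR, 3 of 10 were lower and 0 higher at an unadjusted p under 0.05, beside 2.96% and 8.15% of all genes, and the count at an adjusted p under 0.05 was 0. Elf3, an epithelial factor of the ETS family, had 521, 577 and 456 CPM in NSD2fl/fl and 331, 332 and 364 CPM in NSD2∆IE. All NSD2∆IE values lay below all NSD2fl/fl values, as was so for 7.28% of all genes. The log2 fold change of Elf3 was -0.60 (SE 0.142, edgeR unadjusted p = 0.00438, adjusted p = 0.302). DESeq2 gave an adjusted p of 0.00694, the lowest over 16 alternatives with a highest of 0.990. Gata6 (-0.35, unadjusted p = 0.0361), a regulator of gut epithelium, and Klf4 (-0.41, unadjusted p = 0.0404), a factor of differentiated colonocytes, followed, and Grhl2, a regulator of epithelial junction genes, had -0.25 (unadjusted p = 0.0759). Cdx2, the hindgut factor that stood above 0 in the genotype fit, was lower in every library of high Hoxb13, at 77.2 to 93.3 CPM against 242 to 305 CPM, as were Cldn15 and Cldn23.

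Among themselves, the claudins fell into a few patterns over the 6 libraries, given as Pearson correlations of log2 CPM. Cldn8 ran with Cldn12 (r = 0.84) and against Cldn15 (r = -0.90). Cldn2 ran with Cldn23 (r = 0.93) and Cldn3 (r = 0.88), and Cldn3 with Cldn7 (r = 0.89). All points share the libraries and their composition, and with 6 points these values are descriptions.

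The genes most like each claudin, among 10142 with a mean of at least 10 CPM, were read in the same way. For Cldn4 they were Cry2 (r = 0.987), Ciart (r = 0.981) and Acp6 (r = 0.979). For Cldn8 they were Egln3 (r = 0.995), Cop1 (r = 0.993) and Sh2d4a (r = 0.991). For Cldn15 they were Id2 (r = 0.993), Smim14 (r = 0.990) and Gal (r = 0.989), for Cldn2 Atg9a, Rpusd4 and Suclg2, and for Cldn5 Limd2, C1ra and Diablo. Such likeness is common with 6 libraries, since 111 genes had r over 0.95 with Cldn8, 49 with Cldn15, 120 with Cldn2, 16 with Cldn4 and 14 with Cldn5. The leading genes were Pitx1 for Cldn1, Znrf2 for Cldn3, Stk25 for Cldn7, Dgcr2 for Cldn12 and Aldh3a2 for Cldn23, with 5 to 101 genes past the same threshold.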

How the data were processed

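RNA-seq of colon tissue was analysed from 3 NSD2fl/fl and 3 NSD2∆IE libraries, grouped by the labels. RNA had been isolated with TRIzol reagent. For every library the authors deposited raw counts, whole numbers of reads for each gene symbol without normalization. A second deposited value, FPKM, scales these reads to gene length and library total, and so corrects for length but not for composition. The submitters' processing notes list fastp, HISAT2, HTSeq, R 3.2.0 and the build mm10. Versions of the first 3, the gene annotation and the strand setting are not given in the sources used here. Totals were 38041832 to 38604680 counts. No pair of libraries agreed within sampling noise (chi-square per degree of freedom of at least 35.46).

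Counts were filtered with filterByExpr of edgeR 4.0.16 (R 4.3.3), scaled by TMM and compared with the two-sided quasi-likelihood test over all 16347 genes, with Benjamini-Hochberg adjustment. The fit was tested on simulated data. CPM were TMM-scaled, and log2 CPM used a prior count of 2. Alternatives were RLE and upper-quartile factors, library totals alone, no filter, a replicate block, the Hoxb13 set as a term, DESeq2 1.42.0, limma-voom (limma 3.58.1), limma on log2(FPKM + 1) and log2(FPKM + 0.1), and leaving out each library. Named genes were the 10 claudins, the other claudins by their counts, Hoxb13, Nsd2 and Xist, the 4 junction partners and the 4 epithelial transcription factors of smallest p, and the 3 genes most correlated with each claudin. Of the other claudins and the list genes, Cldn14, Lsr, Cgnl1 and Cdx2 were named after their values were seen. Members and lists were chosen with earlier results of these data known. Gene positions were matched by symbol, and promoter windows by symbol to RefSeq.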

Additional observations from a re-analysis of the deposited data

How the results depend on the processing

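No claudin passed an adjusted p of 0.05 in any of the 16 alternatives. The fitted direction of Cldn3, Cldn4, Cldn5, Cldn7, Cldn8, Cldn12 and Cldn15 was the same in all 16. That of Cldn23 (-0.08) turned to 0.052 when only library totals were used, 0.068 at log2(FPKM + 1) and 0.073 at log2(FPKM + 0.1), and ranged from -0.26 to 0.17 over the fits without one library, turning without NSD2fl/fl replicate 2 (0.17) or NSD2∆IE replicate 1 (0.069). Cldn1 turned to -0.054 without NSD2∆IE replicate 1 (range -0.054 to 0.43), and Cldn2 to 0.16 without NSD2fl/fl replicate 2 (range -0.35 to 0.16). The number of claudins at an unadjusted p under 0.05, 1 as reported, was 2 with upper-quartile factors, library totals alone and the Hoxb13 term. It was also 2 with DESeq2, log2(FPKM + 1) and log2(FPKM + 0.1), and in all of these Cldn5 joined Cldn8. With 1 library left out it was 0 to 1. That 1 was Cldn8 without NSD2fl/fl replicate 2 or NSD2∆IE replicate 1, and Cldn5 without NSD2fl/fl replicate 3 (edgeR unadjusted p = 0.0388). Of these settings, the share of all genes was counted only for the Hoxb13 term, as given above. The number without overlap between genotypes, 1 as reported, was 2 with library totals alone, deposited FPKM and upper-quartile factors, and 1 to 4 without one library. For the changed scalings the share over all genes was not counted. The number without overlap between the Hoxb13 sets, 4, was 4 to 6 without one library. Fewer libraries overlap less often for any gene, and over all genes tested the share without overlap went from 18.7% to between 21.7% and 35.8% for the genotypes and from 22.4% to between 26.04% and 40.9% for the Hoxb13 sets. DESeq2 called 1 junction partner at an adjusted p under 0.05 in place of 0. Fits without one library gave 2 to 7 partners at an unadjusted p under 0.05 in place of 4. The share of all genes called in these fits was not counted. Causes were not tested.

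With the replicate block, Cldn8 was -1.34 (unadjusted p = 0.0107, adjusted p = 0.309) and Cldn4 0.66 (unadjusted p = 0.0134, adjusted p = 0.309), so that 2 claudins were at an unadjusted p under 0.05. Deviations from the group means correlated at 0.501, 0.643 and -0.166 for libraries of number 1, 2 and 3. Libraries of number 1 were both of high Hoxb13 and those of number 2 both of low Hoxb13, while those of number 3 differed. These values do not settle whether the numbers paired samples. The block changed no adjusted call. Cldn1 had the fewest reads of the 10, 94 to 196 counts a library.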

Other observations

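Cldn34c1, a claudin gene of unsettled function, had 2, 4 and 8 counts in NSD2fl/fl and 22, 22 and 19 counts in NSD2∆IE, with a log2 fold change of 1.99 (SE 0.555, edgeR unadjusted p = 0.00937, adjusted p = 0.312). Its counts were few, and it was singled out after its values were seen. Cldn10, a claudin of ion-permeable junctions, had 10, 22 and 26 counts in NSD2fl/fl and 9, 49 and 32 counts in NSD2∆IE, without a difference beyond the spread (log2 fold change 0.47, SE 0.675).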
